A study of Mus musculus with 9 samples.

Results

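Cells carry a set of proteins that detect RNA and DNA where they should not be, in the cytosol, together with enzymes that edit or degrade such nucleic acids or deprive viruses of their building blocks. These genes were followed in mouse bone marrow-derived macrophages (BMDMs). The set was named as 8 genes, Ifih1, Dhx58, Mavs, Eif2ak2, Zbp1, Adar, Trex1 and Samhd1, and a gene entered when the platform annotation gave at least 1 of the array's probe sets to it alone. By that rule 7 of the 8 genes were measured, with 19 probe sets, out of 18193 genes on the array. The only probe set for Trex1, the exonuclease that clears cytosolic DNA, was also assigned to Atrip, so Trex1 has no value here.

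BMDMs are macrophages grown from marrow progenitors. Marrow came from BALB/c mice aged 8 to 10 weeks and was kept 7 days with macrophage colony-stimulating factor (M-CSF) and 10% serum, then overnight with M-CSF and 1% serum, in all groups. The labels and the study's methods differ on the M-CSF concentration of the first step, so it is not given. In the TNC + TLR4i group, cells then received 3 µM TAK-242, a small-molecule inhibitor of Toll-like receptor 4 (TLR4), for 1 h, and then 6 h of 2 µg/ml recombinant tenascin C (abbreviated TNC), which is a glycoprotein of the extracellular matrix. In the TNC + vehicle group, 0.1% DMSO took the place of the inhibitor. For the untreated group the labels name no addition and do not say whether DMSO was given. Each group had 3 arrays (n = 3), called biological replicates. The labels do not say that these came from separate mice, so the p-values measure the spread between these cultures only. There was no group with vehicle alone or inhibitor alone, so TNC and vehicle cannot be told apart in the comparison with untreated cells, nor TNC and inhibitor in the comparison of TNC + TLR4i with untreated cells.

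The RIG-I-like receptors bind viral RNA in the cytosol and signal through the mitochondrial adaptor MAVS to the kinases that switch on type I interferon genes. Interferon released by the cell, or by its neighbours, acts through its receptor and STAT proteins on a large set of interferon-stimulated genes, and the sensors themselves are among the best known of these. Macrophages can also reach this interferon loop from TLR4 through the adaptor TRIF.

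The arrays were Affymetrix mouse whole-genome chips, on which each transcript is read by probe sets and reported as a log2 signal, so that a difference of 1 is a 2-fold change. Array medians lay between 6.72 and 6.74. The 10 macrophage markers averaged 12.4 to 12.5 in TNC + TLR4i, 12.6 to 12.7 in TNC + vehicle and 12.5 in untreated arrays, and all 10 lay above the array median in every array. Fibroblast markers averaged 9.17 to 9.51 in TNC + TLR4i, 9.29 to 9.61 in TNC + vehicle and 9.31 to 9.53 in untreated arrays. At least 7 of these 8 genes lay above the array median in every array, and the source of their signal was not tested. Lymphocyte markers averaged below the array medians in every array. Neutrophil and plasmacytoid dendritic cell markers averaged 6.91 to 7.29. Endothelial markers stood out in TNC + vehicle replicate 1. Their 12 genes averaged 7.56 in that array, 6.96 in both other TNC + vehicle arrays, 6.72 to 6.74 in TNC + TLR4i and 6.77 to 6.81 in untreated arrays, and 11 of the 12 were higher there than their mean in replicates 2 and 3 of that group. Without that array all 19 differences below were larger in size in both comparisons that use it, by at most 0.15 on the log2 scale, and each call made with it was kept. The 3′ minus 5′ signal of the actin control, a sign of RNA integrity, was 0.30 to 0.37 in TNC + TLR4i, 0.20 to 0.22 in TNC + vehicle and 0.29 to 0.32 in untreated arrays, and that of the Gapdh control lay between -0.35 and -0.26 in all 9. Its part in the results was not tested.

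Many interferon-stimulated genes carry, near the start of transcription, a short element with paired GAAA runs that is bound by interferon regulatory factors. Sequences around the starts of 6 of the 8 genes, in 9 windows, were available from RefSeq (mouse build GRCm38.p6). Dhx58 and Zbp1 had no window and were not searched. Shown here are the 250 bases before the start of Ifih1, Eif2ak2 and Mavs, each 5′ to 3′ on the gene's own strand. Signals of Ifih1 and Eif2ak2 rose in TNC + vehicle against untreated, and that of Mavs did not. Capitals mark matches to GAAANNGAA on either strand, of which there is 1, in Ifih1, on the opposite strand.
Ifih1 upstream (chr2:62646256-62646505, minus strand): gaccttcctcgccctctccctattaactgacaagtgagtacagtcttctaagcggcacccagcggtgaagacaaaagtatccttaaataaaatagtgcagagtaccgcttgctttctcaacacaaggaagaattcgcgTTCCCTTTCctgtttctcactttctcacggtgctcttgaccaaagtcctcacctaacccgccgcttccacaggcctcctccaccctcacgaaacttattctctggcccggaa
Eif2ak2 upstream (chr17:78882573-78882822, minus strand): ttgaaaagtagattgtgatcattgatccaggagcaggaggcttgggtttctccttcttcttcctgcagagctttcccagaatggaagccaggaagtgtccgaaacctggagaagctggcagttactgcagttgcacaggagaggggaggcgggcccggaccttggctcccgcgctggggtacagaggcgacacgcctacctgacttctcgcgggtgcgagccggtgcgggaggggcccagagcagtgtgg
Mavs upstream (chr2:131233813-131234062, plus strand): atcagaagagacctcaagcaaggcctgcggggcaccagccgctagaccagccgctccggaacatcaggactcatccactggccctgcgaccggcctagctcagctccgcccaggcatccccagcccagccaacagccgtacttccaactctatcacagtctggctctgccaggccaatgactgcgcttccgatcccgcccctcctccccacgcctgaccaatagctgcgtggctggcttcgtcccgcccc

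Further matches lie just after the start of Ifih1, of Eif2ak2 and of 1 of the 3 annotated starts of Adar, which also has one, not shown, at bases -249 to -241. These 30-base stretches are shown because they hold the matches to GAAANNGAA, or to its longer form with 1 more A at the 3′ end, in capitals. In Eif2ak2 the capitals span a pair of overlapping matches.
Ifih1 after the start (chr2:62646206-62646235, minus strand): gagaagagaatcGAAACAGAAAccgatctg
Eif2ak2 after the start (chr17:78882535-78882564, minus strand): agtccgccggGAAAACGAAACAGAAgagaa
Adar after the start (chr3:89730738-89730767, plus strand): ttttcaaggaaacGAAAGTGAActctgggg

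Counted from the start, the longer form was found at bases 33 to 42 of Ifih1 and 19 to 28 of Eif2ak2, and in 3.44% of all 32851 windows of the same 300 bases. The shorter GAAANNGAA, which every match to the longer form contains, was found in Ifih1, Eif2ak2 and Adar and in 8.56% of all windows. The STAT-type core TTCNNNGAA was found in Eif2ak2, Adar and Samhd1 and in 8.3% of all windows. None of the 3 was found in the windows of Mavs and Trex1 or at the other starts of Adar, and Samhd1 held neither form of the GAAA element. Both strands were searched, and a match is only a run of letters, with no measurement of binding in these data.

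TNC + vehicle macrophages had higher signals than untreated macrophages for 6 of the 7 genes, all but Mavs, and these 6 genes were lower when TLR4i was given with TNC. A probe set was called when the limma adjusted p was under 0.05 and the change at least 1.5-fold. In TNC + vehicle against untreated, 14 of the 19 probe sets were called higher, where 2.89% of all 45037 probe sets were, and 0 were called lower, where 2.84% of all were. At an unadjusted p under 0.05, 17 were higher and 2, both of Mavs, were lower, against 15% and 17.9% of all. The 5 not called were both of Mavs and 3 of the 5 of Samhd1. In TNC + TLR4i against TNC + vehicle the same 14 probe sets were called lower (3.12% of all) and 0 higher (2.95% of all), with 15 lower and 2 higher at an unadjusted p under 0.05, against 14.4% and 18.3% of all. Both comparisons use the TNC + vehicle arrays and are therefore not independent. In bulk RNA such as this, fewer cells expressing a gene and less RNA per cell cannot be told apart.

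**Figure D1:**
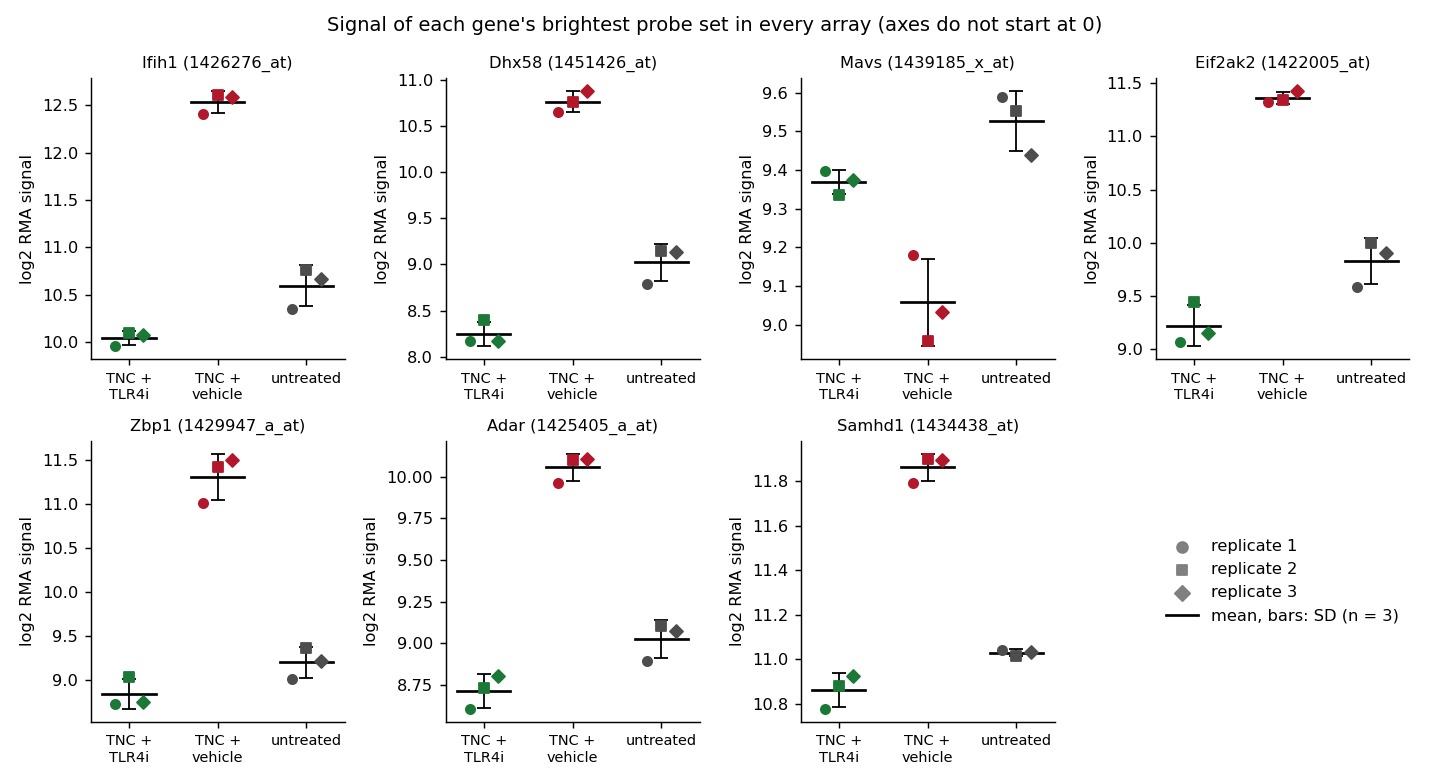
Log2 signal of the brightest probe set of each of the 7 genes (vertical axes, which do not start at 0) in TNC + TLR4i, TNC + vehicle and untreated arrays, with 1 point per array, the group mean as a wide line and the SD as bars (n = 3). TNC + vehicle arrays lie above both other groups for 6 genes and below them for Mavs.

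Ifih1 encodes MDA5, the RIG-I-like receptor for long double-stranded RNA. Its 1 probe set (1426276_at) read 9.96, 10.09 and 10.07 in TNC + TLR4i, 12.40, 12.61 and 12.59 in TNC + vehicle and 10.35, 10.76 and 10.67 in untreated arrays. The 3 groups did not overlap, and TNC + TLR4i was the lowest. Against untreated cells, Ifih1 rose 3.84-fold in TNC + vehicle (log2 difference 1.94 ± 0.10 SE; limma adjusted p = 1.13e-07). It was 5.63-fold lower in TNC + TLR4i than in TNC + vehicle (-2.49 ± 0.08; adjusted p = 6.16e-10).

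Dhx58 encodes LGP2, the relative of MDA5 and RIG-I that lacks the signalling domain and modulates the other receptors. Its brightest probe set (1451426_at) read 8.17, 8.40 and 8.17 in TNC + TLR4i, 10.66, 10.76 and 10.88 in TNC + vehicle and 8.79, 9.14 and 9.14 in untreated arrays. Again no group overlapped another. The difference was 1.74 ± 0.10 in TNC + vehicle against untreated (3.34-fold; adjusted p = 1.89e-07) and -2.52 ± 0.09 in TNC + TLR4i against TNC + vehicle (5.74-fold lower; adjusted p = 1.21e-09). A second probe set (1420768_a_at) gave 1.66 and -2.20 for these comparisons. The third (1420769_at) lay at 6.21 to 6.44, 6.98 to 7.27 and 6.36 to 6.56 in TNC + TLR4i, TNC + vehicle and untreated arrays, close to the median of all values on the arrays, and gave 0.63 and -0.78. Its call against untreated cells was lost without untreated replicate 1 (0.57) or TNC + vehicle replicate 3 (0.55), which took it below 1.5-fold.

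Mavs, the adaptor through which these receptors signal, was the exception in direction. Its brightest probe set (1439185_x_at) read 9.40, 9.34 and 9.38 in TNC + TLR4i, 9.18, 8.96 and 9.03 in TNC + vehicle and 9.59, 9.55 and 9.44 in untreated arrays. The TNC + vehicle arrays were the lowest and overlapped neither of the other groups. The second (1451176_at) read 8.72, 8.48 and 8.52 in TNC + TLR4i, 8.32, 8.06 and 8.33 in TNC + vehicle and 8.64, 8.52 and 8.44 in untreated arrays, with the same order for TNC + vehicle. In TNC + vehicle against untreated the differences were -0.47 ± 0.08 (1.38-fold lower; adjusted p = 0.00083) and -0.30 ± 0.09 (1.23-fold lower; adjusted p = 0.0303), which passed the p threshold and not the fold threshold. They were, in TNC + TLR4i against TNC + vehicle, 0.31 ± 0.07 (adjusted p = 0.00861) and 0.34 ± 0.09 (adjusted p = 0.019), also under 1.5-fold. The adaptor therefore gave the only negative differences among the 19 probe sets in TNC + vehicle against untreated, 2 of 19.

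Eif2ak2 encodes PKR, the kinase that binds double-stranded RNA and stops translation by phosphorylating eIF2α. Its brightest probe set (1422005_at) read 9.07, 9.44 and 9.15 in TNC + TLR4i, 11.32, 11.34 and 11.42 in TNC + vehicle and 9.58, 10.00 and 9.90 in untreated arrays. The spread within TNC + vehicle was the smallest of the 3 groups for this probe set, and no group overlapped another. It rose 2.90-fold in TNC + vehicle against untreated (1.54 ± 0.10; adjusted p = 4.28e-07) and was 4.41-fold lower in TNC + TLR4i than in TNC + vehicle (-2.14 ± 0.09; adjusted p = 9.28e-09). The other probe sets gave like values, 1.66 and -2.11 for 1422006_at, and 1.73 and -2.19 for 1440866_at.

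Zbp1 encodes the sensor of left-handed Z-form RNA and DNA that can start necroptosis through RIPK3. The probe set 1419604_at read 7.92, 8.19 and 8.00 in TNC + TLR4i, 10.82, 11.15 and 11.27 in TNC + vehicle and 8.33, 8.81 and 8.55 in untreated arrays. This probe set had the largest difference of the 19 in both comparisons, 5.73-fold higher in TNC + vehicle than in untreated (2.52 ± 0.13; adjusted p = 9.31e-08) and 8.26-fold lower in TNC + TLR4i than in TNC + vehicle (-3.05 ± 0.11; adjusted p = 2.38e-09). The brightest probe set of the gene (1429947_a_at) read 8.73, 9.03 and 8.75 in TNC + TLR4i, 11.01, 11.42 and 11.50 in TNC + vehicle and 9.01, 9.36 and 9.22 in untreated arrays. It gave smaller differences, 2.11 ± 0.12 (4.33-fold) and -2.47 ± 0.12 (5.56-fold lower), and in it 1 TNC + TLR4i array lay above the lowest untreated array.

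Adar encodes ADAR1, which turns adenosine to inosine in double-stranded RNA and keeps the cell's own RNA from being detected by MDA5. Its brightest probe set (1425405_a_at) read 8.61, 8.73 and 8.81 in TNC + TLR4i, 9.96, 10.10 and 10.11 in TNC + vehicle and 8.89, 9.11 and 9.07 in untreated arrays. The 3 groups were apart, with smaller gaps than for the RNA sensors. Adar rose 2.04-fold in TNC + vehicle against untreated (1.03 ± 0.08; adjusted p = 1.57e-06) and was 2.53-fold lower in TNC + TLR4i than in TNC + vehicle (-1.34 ± 0.08; adjusted p = 9.13e-08). The other probe sets gave 0.89 and -1.05 (1434268_at), and 0.64 and -1.03 (1439276_at). The last of these was also below 1.5-fold against untreated cells without untreated replicate 2 (0.56) or TNC + vehicle replicate 2 (0.52).

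Samhd1 encodes the triphosphohydrolase that empties the pool of deoxynucleotides and so limits reverse transcription. Its brightest probe set (1434438_at) read 10.78, 10.88 and 10.93 in TNC + TLR4i, 11.79, 11.90 and 11.90 in TNC + vehicle and 11.04, 11.01 and 11.03 in untreated arrays. It rose 1.78-fold in TNC + vehicle against untreated (0.83 ± 0.06; adjusted p = 2.07e-06) and was 2.00-fold lower in TNC + TLR4i than in TNC + vehicle (SE 0.07 on the log2 scale; adjusted p = 6.03e-07). A second (1418131_at) gave 0.81 and -0.96 and was also called. The other 3 probe sets of Samhd1 were not. The probe set 1444064_at differed by 0.43 (adjusted p = 0.00986) and -0.46 (adjusted p = 0.0102), short of 1.5-fold. For 1420273_x_at the differences were 0.19 (adjusted p = 0.141) and -0.10 (adjusted p = 0.581), and for 1420272_at 0.26 (adjusted p = 0.133) and -0.10 (adjusted p = 0.638). With the probe sets of Samhd1 averaged, the gene differed by 0.50 and -0.52 and was called in neither comparison.

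**Figure D2:**
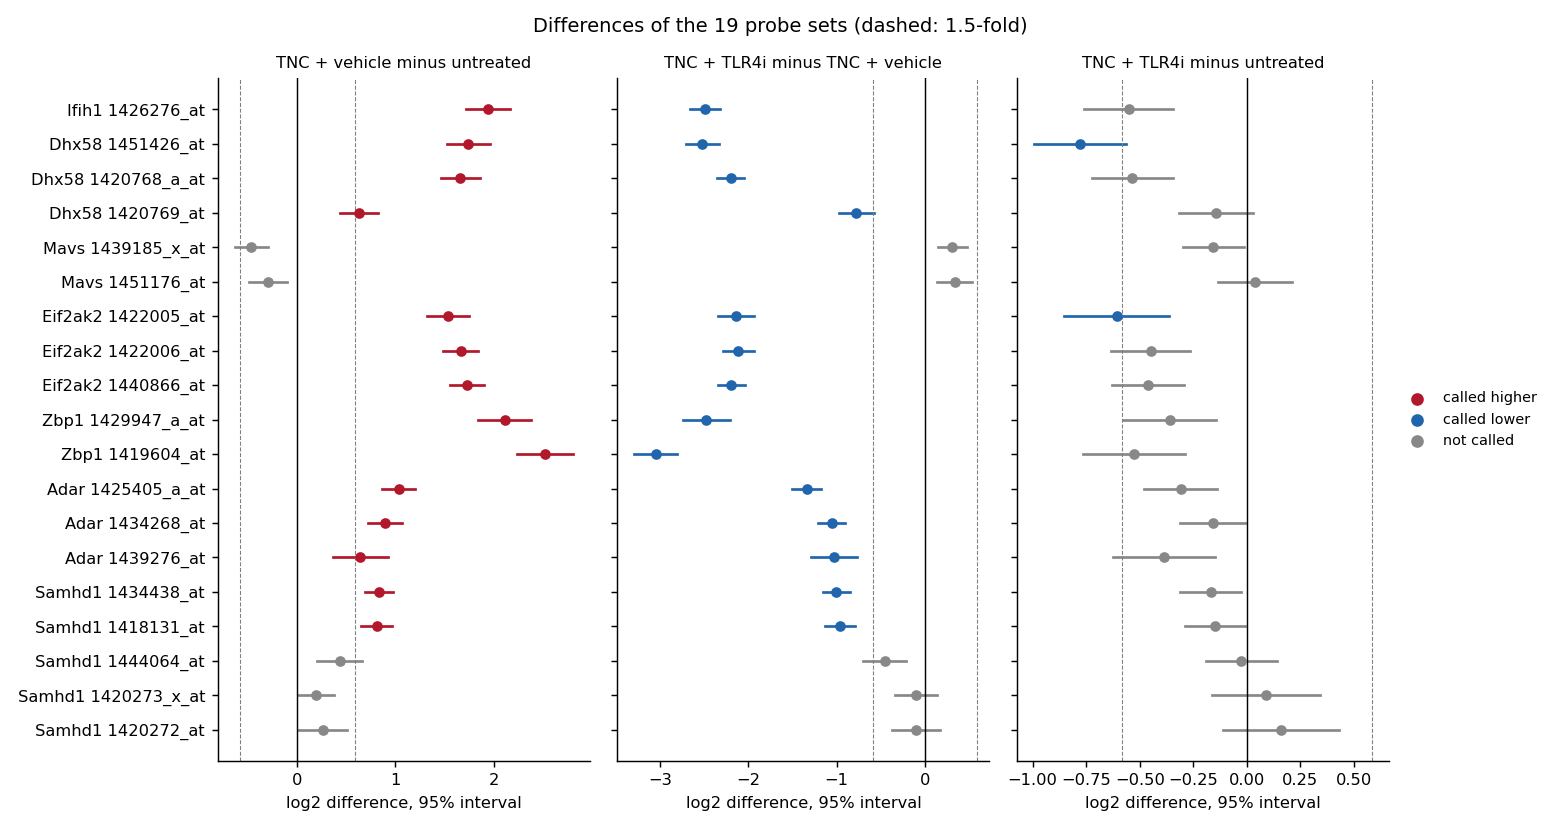
Log2 differences with 95% intervals (horizontal axes, on a scale of their own in each panel) for the 19 probe sets in TNC + vehicle minus untreated, TNC + TLR4i minus TNC + vehicle and TNC + TLR4i minus untreated, with the 1.5-fold limits dashed. In the first and second panels 14 probe sets are called, higher and lower, and in the last panel 2 are called lower.

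Over all 19 probe sets the median difference was 0.89 in TNC + vehicle against untreated and -1.05 in TNC + TLR4i against TNC + vehicle, beside medians over all 45037 probe sets of 0.00 in each. In TNC + vehicle against untreated the groups did not overlap for 16 probe sets that were higher and 2 that were lower, where 16.8% and 19.2% of all probe sets were of these kinds. The numbers in TNC + TLR4i against TNC + vehicle were 15 lower and 2 higher, against 16% and 20% of all.

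TNC + TLR4i was also compared with untreated cells, a comparison in which TNC and inhibitor cannot be told apart. Here most of the signals were slightly below untreated and few passed the test. Dhx58 (1451426_at) was 1.71-fold lower in TNC + TLR4i (-0.78 ± 0.10; adjusted p = 0.00392) and Eif2ak2 (1422005_at) 1.52-fold lower (-0.61 ± 0.11; adjusted p = 0.0319), so 2 of the 19 probe sets were called lower, against 0.127% of all, and 0 were called higher, against 0.0466% of all. At an unadjusted p under 0.05, 14 were lower and 0 higher, against 4.22% and 4.01% of all.

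Another 4 probe sets passed the p threshold with less than 1.5-fold, among them Ifih1 (-0.55 ± 0.10; adjusted p = 0.0204) and the remaining brighter one of Dhx58 (1420768_a_at, -0.54; adjusted p = 0.015). The others were those of Eif2ak2, 1422006_at (-0.45; adjusted p = 0.0348) and 1440866_at (-0.46; adjusted p = 0.0183). Zbp1 differed by -0.53 (1419604_at; adjusted p = 0.0577) and -0.36 (1429947_a_at; adjusted p = 0.219), Adar by -0.31 (1425405_a_at; adjusted p = 0.159) and Samhd1 by -0.17 (1434438_at; adjusted p = 0.481). Mavs differed by -0.16 (1439185_x_at; adjusted p = 0.548) and 0.04 (1451176_at; adjusted p = 0.957). The median of the 19 was -0.31, beside 0.00 over all probe sets, and 16 of the 19 differences were negative.

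The groups did not overlap for 13 probe sets that were lower and 0 that were higher, where 6.11% and 7.12% of all probe sets were of these kinds. For 12 probe sets of 6 genes, every TNC + vehicle array lay above every untreated array and every untreated array above every TNC + TLR4i array, as for 1.61% of all probe sets. Of the 2 calls, that of Dhx58 1451426_at was kept whichever array was left out (-0.90 to -0.72). That of Eif2ak2 1422005_at depended on the arrays used (-0.73 to -0.52). The number called lower ran between 1 and 5 as single arrays were left out, with 5 without untreated replicate 1 and 1 without untreated replicate 2 or 3 or TNC + TLR4i replicate 1 or 3, and with the probe sets of each gene averaged neither Dhx58 (-0.49) nor Eif2ak2 (-0.51) reached 1.5-fold.

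**Figure D3:**
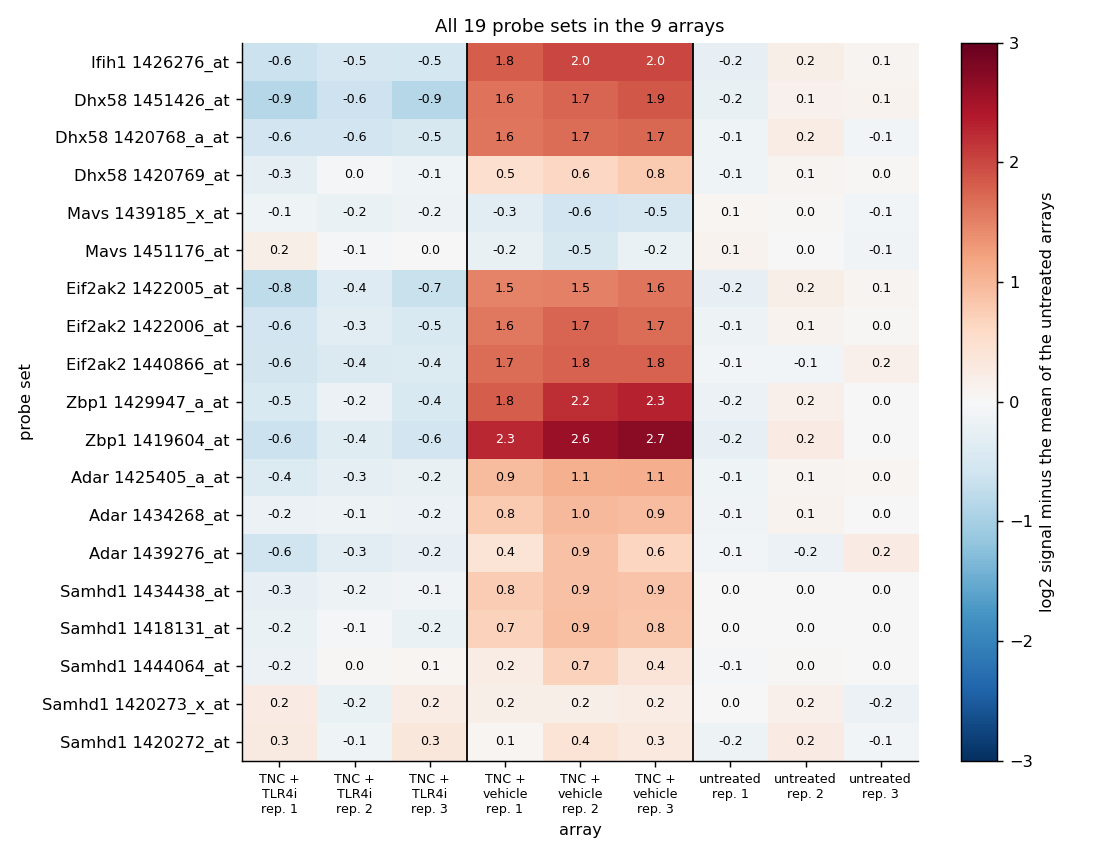
Log2 signal of each of the 19 probe sets (rows) in each array (columns, TNC + TLR4i, TNC + vehicle and untreated) minus the probe set's mean over the untreated arrays, as numbers and colour. TNC + vehicle arrays are above 0 in every row except those of Mavs, and in TNC + TLR4i most rows are at or below 0.

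Within groups, single arrays were often the lowest or highest for the 19 probe sets, which belong to 7 genes and are not separate observations. The same shares over all probe sets were not counted. TNC + vehicle replicate 1 had the lowest signal of its group for 16 of the 19 probe sets, and it was also the array with raised endothelial markers. TNC + TLR4i replicate 1 was lowest in its group for 12 of 19. Untreated replicate 1 was lowest for 13 of 19 and untreated replicate 2 highest for 13 of 19. The SD of a probe set within a group ran from 0.02 to 0.26 in TNC + TLR4i, 0.03 to 0.26 in TNC + vehicle and 0.02 to 0.24 in untreated arrays.

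To set the 7 genes among their partners, 8 lists of genes from the same pathways were read, each gene by its brightest probe set, with the 7 genes counted in the lists they belong to. Of all 18193 genes, 3.74% were called higher and 4.05% lower in TNC + vehicle against untreated. The shares in TNC + TLR4i against TNC + vehicle were 4.05% lower and 4.25% higher, and in TNC + TLR4i against untreated 0.198% lower and 0.0605% higher. The median difference of all genes was 0.01 in TNC + vehicle against untreated, 0.00 in TNC + TLR4i against TNC + vehicle and 0.01 in TNC + TLR4i against untreated. At an unadjusted p under 0.05, 17.8% of all genes were higher and 20.8% lower in TNC + vehicle against untreated. These shares were 16.6% lower and 22.2% higher in TNC + TLR4i against TNC + vehicle, and 4.63% lower and 4.83% higher in TNC + TLR4i against untreated.

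In the list of RNA helicase sensing and its signalling, 11 of 24 measured genes rose in TNC + vehicle against untreated, 1 fell and 12 were not called, with a list median of 0.43. Of the 24 genes, 11, not all of them the ones that had risen, were lower and 1 higher in TNC + TLR4i against TNC + vehicle, with a median of -0.50. Ddx58, which encodes RIG-I, read 9.50, 9.66 and 9.61 in TNC + TLR4i, 11.22, 11.41 and 11.42 in TNC + vehicle and 9.88, 9.95 and 9.97 in untreated arrays. All 3 groups were apart, as for Ifih1, and Ddx58 rose by 1.42 ± 0.07 in TNC + vehicle (adjusted p = 9.99e-08) and differed by -1.76 ± 0.08 in TNC + TLR4i against TNC + vehicle. The antiviral helicase Ddx60 rose most in this list in TNC + vehicle against untreated (2.31 ± 0.10), differed by -2.94 ± 0.07 in TNC + TLR4i against TNC + vehicle, and was also called lower in TNC + TLR4i against untreated (-0.63 ± 0.09; adjusted p = 0.00855). Irf7, the transcription factor that amplifies type I interferon production, rose by 1.33 ± 0.13. The 1 gene that fell was Prkra (-0.92 ± 0.10), the PKR activator PACT, and it was not called when its probe sets were averaged.

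The type I interferon genes of this list, Ifnb1 and Ifna4, were dim. Ifnb1 read 6.31, 6.30 and 6.31 in TNC + TLR4i, 6.52, 6.51 and 6.62 in TNC + vehicle and 6.34, 6.45 and 6.31 in untreated arrays. These values lie below the median of the arrays, where the signal is compressed and folds are understated. TNC + vehicle did not overlap the other groups, with a difference of 0.18 ± 0.07 against untreated (adjusted p = 0.0807) and of -0.24 ± 0.07 in TNC + TLR4i against TNC + vehicle (adjusted p = 0.0183), neither of which reached 1.5-fold. Ifna4, named after its values were seen, averaged 6.13 over the 9 arrays. It differed by 0.07 ± 0.07 in TNC + vehicle against untreated (limma adjusted p = 0.602). In TNC + TLR4i against TNC + vehicle it differed by -0.13 ± 0.07 (limma adjusted p = 0.287). Downstream of the receptor, 4 of 12 genes in the list of type I interferon receptor signalling were called higher in TNC + vehicle and 0 lower, with a median of 0.29, and in TNC + TLR4i against TNC + vehicle 4 were lower and 0 higher, with a median of -0.39. At an unadjusted p under 0.05, 1 gene of this list was lower in TNC + vehicle than in untreated and 1 higher in TNC + TLR4i than in TNC + vehicle. The 4 were Stat2 (1.91 ± 0.11), a subunit of the interferon-activated transcription complex, Usp18 (2.12 ± 0.13), which restrains the receptor, and the feedback inhibitors Socs3 (1.77 ± 0.09) and Socs1 (1.02 ± 0.09). Irf9, the DNA-binding subunit of that complex, differed by -0.01 ± 0.08 (adjusted p = 0.946). Usp18 was also called lower in TNC + TLR4i against untreated (2.00-fold; SE 0.14 on the log2 scale; adjusted p = 0.00678).

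In the list of cytosolic DNA sensing, 4 of 18 genes were higher in TNC + vehicle and 0 lower, with a median of 0.01, and 4 were lower and 0 higher in TNC + TLR4i against TNC + vehicle. At an unadjusted p under 0.05, 3 genes were lower in TNC + vehicle than in untreated and 1 higher in TNC + TLR4i than in TNC + vehicle. Besides Zbp1 these were Ifi204 (1.61 ± 0.12), a DNA-binding protein of the interferon-inducible p200 family, the DNA sensor Cgas (1.40 ± 0.08) and the inflammasome sensor Aim2 (1.00 ± 0.09). Cgas read 7.88, 8.12 and 8.16 in TNC + TLR4i, 9.57, 9.71 and 9.80 in TNC + vehicle and 8.20, 8.40 and 8.27 in untreated arrays. Sting1, the adaptor through which Cgas signals, differed by 0.05 ± 0.07 in TNC + vehicle against untreated (adjusted p = 0.708) and by -0.14 ± 0.08 in TNC + TLR4i against TNC + vehicle (adjusted p = 0.28).

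Around PKR, 2 of 18 genes of the eIF2α branch were higher in TNC + vehicle and 1 lower, with a median of 0.09. These were Eif2ak2 itself, Ppp1r15a (0.77 ± 0.07), which directs the removal of the phosphate from eIF2α, and, lower, Prkra, and in TNC + TLR4i against TNC + vehicle 2 were lower, or 1 without TNC + TLR4i replicate 3, and 1 higher. Of the 10 genes in the list of ZBP1 and its cell death partners, 6 rose, Zbp1 itself among them, and 1 fell, with a median of 0.82. In TNC + TLR4i against TNC + vehicle 6 were lower, again with Zbp1, and 1 higher, with a median of -0.99. Mlkl, the pore-forming effector of necroptosis, read 7.94, 7.92 and 7.99 in TNC + TLR4i, 10.16, 10.25 and 10.32 in TNC + vehicle and 8.09, 8.02 and 8.05 in untreated arrays, so that only the TNC + vehicle arrays stood high. It rose by 2.19 ± 0.07 (adjusted p = 2.65e-09). The 1 gene that fell was the executioner caspase Casp6 (-0.92 ± 0.09), named after its value was seen, and it was not called when its probe sets were averaged. Nlrp3 (1.43 ± 0.10), an inflammasome sensor, and Casp1 (1.14 ± 0.06), its protease, rose as well. Ripk3, the kinase that links ZBP1 to MLKL, differed by 0.14 ± 0.08 (adjusted p = 0.267).

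For the editing and degrading enzymes the lists were mixed. Of 14 genes of RNA editing and double-stranded RNA binding, 2 were higher in TNC + vehicle and 0 lower, Adar and Pnpt1 (1.32 ± 0.09), the mitochondrial polynucleotide phosphorylase, while 2 were lower at an unadjusted p under 0.05. With TLR4i, 2 genes of this list were lower and 0 higher than in TNC + vehicle, or 2 higher at an unadjusted p under 0.05. Of 24 DNA and RNA nucleases, 3 rose, Samhd1 among them, and 4 fell, with a median of 0.10. In TNC + TLR4i against TNC + vehicle 3 were lower and 3 higher, with a median of -0.12. Isg20, an interferon-induced exonuclease, read 8.07, 8.30 and 8.23 in TNC + TLR4i, 11.04, 11.44 and 11.55 in TNC + vehicle and 8.20, 8.77 and 8.51 in untreated arrays and rose by 2.85 ± 0.15 (adjusted p = 8.79e-08). Lower in TNC + vehicle were the secreted ribonuclease Rnase4 (-0.94 ± 0.08) and the lysosomal deoxyribonuclease Dnase2a (-0.89 ± 0.10), and, chosen after their values were seen, Pld4 (-0.77) and Dnase1l1 (-0.68), which also degrade nucleic acids. The number of nucleases that rose was 1 when the probe sets of each gene were averaged, and 2 without untreated replicate 3 or TNC + vehicle replicate 1.

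Among 20 genes of nucleotide pools, the setting in which SAMHD1 acts, 5 rose in TNC + vehicle, Samhd1 itself among them, and 2 fell, with a median of -0.08. In TNC + TLR4i against TNC + vehicle 5 were lower, again with Samhd1, and 2 higher, with a median of 0.11. With the probe sets of each gene averaged, 4 rose in TNC + vehicle and 4 were lower in TNC + TLR4i against TNC + vehicle. Cmpk2, a mitochondrial nucleotide kinase, read 8.27, 8.63 and 8.47 in TNC + TLR4i, 12.21, 12.33 and 12.41 in TNC + vehicle and 9.13, 9.90 and 9.74 in untreated arrays. It rose by 2.72 ± 0.15, differed by -3.86 ± 0.09 in TNC + TLR4i against TNC + vehicle, and was also called lower in TNC + TLR4i than in untreated (-1.14 ± 0.16; adjusted p = 0.0059). The pyrimidine nucleotidase Nt5c3 (2.12 ± 0.10) and the purine nucleoside phosphorylase Pnp (1.43 ± 0.07) rose too, and Ada, the adenosine deaminase that acts on free adenosine, fell by 1.10 in TNC + vehicle. In TNC + TLR4i against untreated, called genes were few in all 8 lists and all of them lower. There were 2 for the helicases (Dhx58 and Ddx60). DNA sensing (Ifi204, -0.83), PKR (Eif2ak2, -0.61), nucleotide pools (Cmpk2) and interferon receptor signalling (Usp18) had 1 each. The lists of ZBP1 and its partners, RNA editing and nucleases had 0. At an unadjusted p under 0.05 these had, in that order, 3, 2 and 5 lower genes and 0, 2 and 0 higher genes. At that unadjusted p the PKR list had 1 lower and 4 higher genes, the helicases 8 and 1, and nucleotide pools 5 and 1. DNA sensing and interferon receptor signalling each had 4 lower and 0 higher. Some of the counts of called genes moved when 1 array was left out. The helicases had 1 lower gene without untreated replicate 3 or TNC + TLR4i replicate 1 and 3 without untreated replicate 1. PKR had 0 without untreated replicate 2 or 3 or TNC + TLR4i replicate 1 or 3. Interferon receptor signalling had 2 without untreated replicate 1, and nucleotide pools had 2 without TNC + TLR4i replicate 2. With probe sets averaged, the helicases and PKR had 0. The number of nucleases lower in TNC + TLR4i than in TNC + vehicle was 1 with probe sets averaged.

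**Figure D4:**
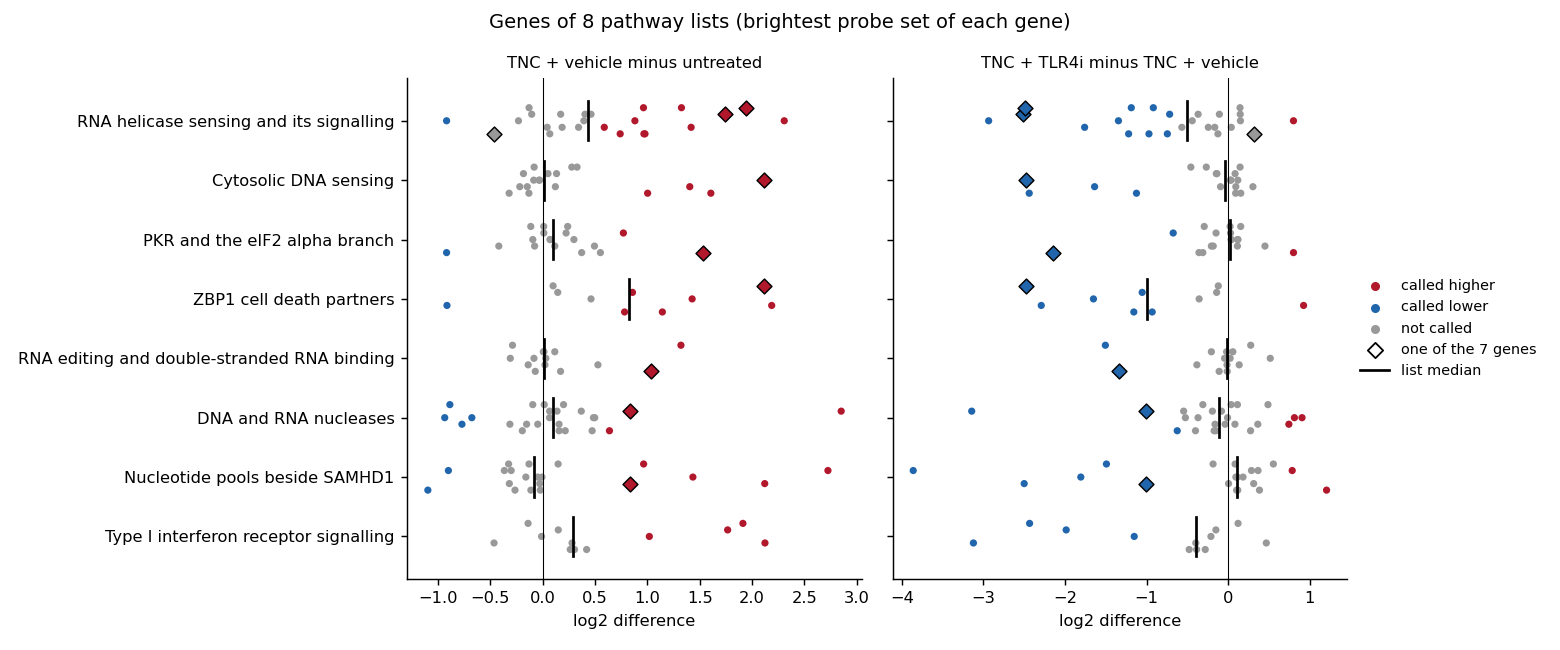
Log2 differences (horizontal axes) of the genes of 8 pathway lists in TNC + vehicle minus untreated and in TNC + TLR4i minus TNC + vehicle, with 1 point per gene, its colour the call, diamonds for the 7 genes and a line for each list's median. The medians of the helicase list (0.43 and -0.50) and of the ZBP1 list (0.82 and -0.99) lie away from 0, while those of the DNA sensing list (0.01 and -0.03) lie near it.

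Genes whose profile over the 9 arrays was most like that of each of the 7 were found by the distance between profiles centred on their own mean, among 11073 genes at or above the median signal. The 7 genes themselves were left out of these 11073, so none of them could be named as a neighbour of another. The distance is on the log2 scale and is 0 for identical profiles. Ifih1 was nearest to Gm20559 (0.13), Nt5c3 (0.26) and Stat2 (0.29), and Dhx58 to Gm20559 (0.34), Stat2 (0.36) and Ifi204 (0.42). Zbp1 was nearest to Nt5c3 (0.27), the activating receptor gene Klrk1 (0.28) and Gm20559 (0.38). Eif2ak2 was nearest to Slfn5 (0.26), Xaf1 (0.31) and Ifi35 (0.32). Of the 7 genes, Ifih1, Dhx58 and Zbp1 shared neighbours, while those of Eif2ak2 were its own. Adar had others, the nuclear body genes Pml (0.15) and Sp100 (0.24) and the tudor domain gene Tdrd7 (0.21). Samhd1 was nearest to Cds1 (0.15), Cox18 (0.15) and Srgap2 (0.17), and Mavs to the transporter Abcg2 (0.11), Npl (0.12) and Sh3pxd2a (0.15).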

How the data were processed

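RNA from 9 BMDM cultures was hybridised to Affymetrix mouse genome arrays. The authors used the Chipster software to apply RMA (robust multiarray averaging), and the deposited values are log2 signals of probe sets. RMA corrects background and gives all arrays 1 distribution. It compresses dim signals, so folds of weak genes are understated and a change in total RNA is hidden. Values ran from 5.44 to 14.69. The number of arrays limits the precision.

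Of 45101 probe sets, 64 array controls were left out. The platform annotation gave 34945 of the other 45037 a single gene, 932 several and 9160 none. Only the first kind were named, and updating symbols changed 0. For a gene with several probe sets, the one with the highest mean over the 9 arrays stands for it in lists. Groups were taken from the sample titles and compared in pairs by the lmFit and eBayes functions of limma 3.58.1 (R 4.3.3; two-sided) on the 6 arrays of the groups compared, with Benjamini-Hochberg adjustment over 45037 probe sets. A call needs an adjusted p under 0.05 and at least 1.5-fold. The fit was tested on simulated data.

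The genes, the lists and the tests were chosen with earlier results of these data known. Named beside the 7 genes are up to 4 called genes per list by size of change in TNC + vehicle against untreated, the interferon, adaptor and kinase genes Ifnb1, Irf7, Irf9, Ddx58, Cgas, Sting1, Ripk3 and Mlkl, and the 3 nearest genes. Alternatives, with their effect given at the end, were the probe set summary, dim probe sets left out, other normalizations and limma settings, thresholds, a replicate block and each array left out in turn. Promoter windows are from RefSeq, GRCm38.p6.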

Additional observations from a re-analysis of the deposited data

How the results depend on the processing

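The number of arrays and the dimness of Ifnb1 and of the weakest Dhx58 and Samhd1 probe sets limit what could be resolved. Each comparison had 329 alternative values over the probe sets and genes, with the counts left out. Of these, 312 kept direction and side of the threshold in TNC + vehicle against untreated, 319 in TNC + TLR4i against TNC + vehicle and 305 in TNC + TLR4i against untreated. With no minimum fold, 2 probe sets were lower in TNC + vehicle against untreated and 2 higher in TNC + TLR4i against TNC + vehicle, those of Mavs. With a minimum of 2-fold, 9 were higher in TNC + vehicle against untreated and 12 lower in TNC + TLR4i against TNC + vehicle. In limma's test against 1.5-fold these numbers were 10 and 12. In TNC + TLR4i against untreated, the 2 called lower became 1 with trend and robust settings, 1 with array weights, 1 at an adjusted p under 0.01, 6 with no minimum fold, 0 at a minimum of 2-fold and 0 with treat, limma's test against 1.5-fold. Leaving out 1 array gave 1 to 5.

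Values that changed sign were small. In TNC + TLR4i against TNC + vehicle leaving out 1 array gave -0.176 to 0.0461 for Samhd1 1420273_x_at and -0.198 to 0.0467 for 1420272_at, positive only without TNC + TLR4i replicate 2. In TNC + TLR4i against untreated it gave -0.0338 to 0.0931 for Mavs 1451176_at, negative without TNC + TLR4i replicate 1 or untreated replicate 3, and -0.0685 to 0.0530 for Samhd1 1444064_at, positive without TNC + TLR4i replicate 1. The cause was not tested.

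The replicate numbers were not found to pair the samples. Deviations from the group means of same-numbered arrays correlated at -0.10 to 0.14, and 2, 3 and 2 of 6 arrays correlated best with their own number in the 3 comparisons. With the replicate number as a block the counts were 14 higher in TNC + vehicle against untreated, 14 lower in TNC + TLR4i against TNC + vehicle and 2 lower in TNC + TLR4i against untreated.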
